A study of Homo sapiens with 8 samples.

Results

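The heterogeneous nuclear ribonucleoproteins (hnRNPs), with the polypyrimidine tract binding (PTB) proteins, the poly(C) binding proteins (PCBPs) and a few close partners, are abundant nuclear proteins that coat newly made RNA. The 34 genes described here were chosen by name, as gene symbols of the deposited expression table, with earlier results of these data known. All 34 were found among its 61906 listed genes. They were measured in U251, an established human glioblastoma cell line labelled wild type, and the question was which transcripts differ in cells given LLY-283, a compound studied here as a sensitizer to radiation. LLY-283 inhibits PRMT5, an arginine methyltransferase that makes symmetric dimethylarginine in proteins. Of the 8 libraries, 4 came from cultures given vehicle (DMSO) and 4 from cultures given 100 nM LLY-283, and RNA was taken after 24 h. Libraries were made from poly(A) RNA, and the labels call the 4 samples of a group biological replicates. The labels do not say whether these were separate cultures, so the p-values measure the spread between these samples.

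An hnRNP binds short RNA motifs through RNA recognition motifs (RRMs), K homology (KH) domains or glycine-rich tails, and where it sits decides which exons are kept, which transcripts leave the nucleus and how long they last. Many of these proteins repress exons, in opposition to the SR proteins, and several keep their own amounts in check by steering their own transcripts into nonsense-mediated decay. Many hnRNPs carry methylated arginines in their glycine-rich regions, mostly placed by PRMT1, and hnRNP A1 is among the proteins that PRMT5 methylates. PTBP1 is the PTB protein of most cell types and of glioma, whereas PTBP2 is the form of developing neurons.

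The values are TPM, RSEM's length-corrected estimate of each gene's share of the transcripts in a library, so levels of different genes can be compared but the number of reads behind a value, and so its counting error, is unknown. LLY-283 and vehicle were compared with limma on log2(TPM + 0.1) over 14478 genes, those whose mean level reached 1 TPM. A gene was called higher or lower when its p-value, adjusted by the Benjamini-Hochberg method over all of these genes, was under 0.05. All 34 genes passed the filter on low values. A fold change below is LLY-283 over vehicle on the log2(TPM + 0.1) scale, with its standard error (SE). In cultured cells measured in bulk, fewer cells making a transcript and less of it per cell cannot be told apart.

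PRMT5 mRNA itself was at 104, 102, 100.4 and 92.9 TPM with vehicle and at 94.3, 99.2, 102 and 106 TPM with LLY-283, a log2 fold change of 0.01 (SE 0.047, adjusted p = 0.944). The inhibitor acts on the enzyme, so this level does not check the labels. The glial and glioma markers VIM, NES, GFAP, SOX2, CD44 and EGFR had vehicle means from 23.7 TPM (EGFR) to 4301 TPM (VIM), and S100B was at 4.33 TPM. Of these 7 markers, NES (log2 fold change -0.17), GFAP (-0.25) and SOX2 (-0.27) were called lower with LLY-283 and CD44 (0.11) higher. Of 8 markers of other cell types, PTPRC, PECAM1, EPCAM, RBFOX3, SNAP25 and MOG stayed below 1 TPM in every library, and CD68 lay between 0.95 and 2.93 TPM. COL1A1, a collagen gene of mesenchymal cells, was at 53.9 ± 2.59 TPM with vehicle and 74.9 ± 4.74 TPM with LLY-283 (SD, n = 4 each) and was called higher (adjusted p = 0.000355). The part of these marker changes in the results below was not tested. One library stood apart. LLY-283 replicate 4 had 7.19% of its TPM in genes of the mitochondrial genome, against 10.6% to 11% in the other LLY-283 libraries and 10.2% to 10.8% in the vehicle libraries, so fold changes that moved by more than 1.5 times or turned without it are also given without it.

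The 34 genes differed widely in level. With vehicle, HNRNPA1 was highest at 1643 ± 41.3 TPM (SD, n = 4), followed by HNRNPA2B1 at 1348 ± 51.7 TPM and HNRNPC at 1034 ± 15.5 TPM. These 3 genes, which encode the core proteins of the hnRNP particle, made up 31.6% of the summed level of all 34. HNRNPK (812 ± 10.5 TPM), which encodes a KH protein that binds cytosine-rich RNA and DNA, HNRNPH1 (736 ± 34.2 TPM) and PCBP2 (607 ± 6.47 TPM) came next. HNRNPU (574 ± 2.47 TPM) and HNRNPD (570.1 ± 11.4 TPM) followed and did not differ beyond their spread. In all, 23 genes had vehicle means between 108 and 812 TPM and 8 had means below 100 TPM. PTBP3 (20.5 ± 1.22 TPM), PCBP4 (20.0 ± 1.07 TPM) and PTBP2 (16.9 ± 0.895 TPM) were lowest, and the first of these did not differ from PCBP4 beyond the spread. Together the 34 genes took 1.27% ± 0.0181 of all TPM with vehicle and 1.32% ± 0.0124 with LLY-283 (SD, n = 4 each). Their summed level lay between 12565 and 12993 TPM in the vehicle libraries and between 13107 and 13371 TPM in the LLY-283 libraries, without overlap. The highest sum was in LLY-283 replicate 4, the library with only 7.19% of its TPM in mitochondrial genes. Neither the sums nor the shares were rescaled without those genes, so this separation may not hold after such rescaling.

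**Figure D1:**
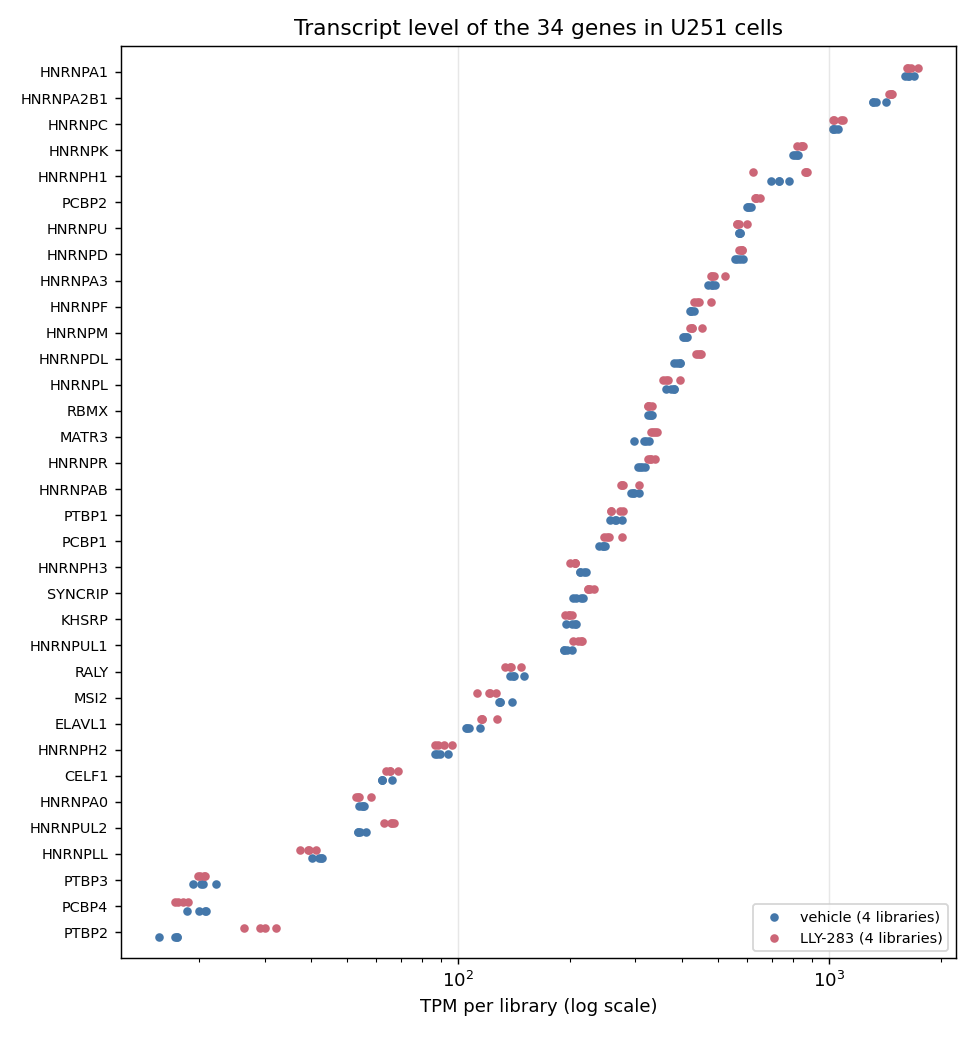
TPM of each of the 34 genes in each library on a log axis, with the 4 vehicle libraries in blue and the 4 LLY-283 libraries in red, ordered by the vehicle mean. HNRNPA1 was highest at a vehicle mean of 1643 TPM and PTBP2 lowest at 16.9 TPM, and PTBP2 is the gene whose groups are farthest apart.

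After LLY-283, 9 of the 34 genes were higher and 3 were lower at an adjusted p-value under 0.05, and 22 did not pass. Of all genes tested, 8.61% were higher and 17.6% were lower, so the share of the 34 called higher was above that of all genes and the share called lower was below it. These shares describe a list chosen by name, with earlier results of these data known, and were not tested. The median log2 fold change of the 34 genes was 0.03, against -0.05 for all genes tested, and 23 of the 34 had a fold change above 0, as had 5766 of the 14478 genes tested. The median of the 34 was 0.015 without LLY-283 replicate 4, 0.077 with median-of-ratios scaling, 0.091 with the GC and length trend removed and 0.026 with quantile normalization, where that of all genes was 0.014. Between 20 and 30 of the 34 lay above 0 in the alternatives. Groups without overlap were seen in 11 genes that were higher (9.63% of all genes tested) and in 2 that were lower (19.6% of all genes tested). One gene, PTBP2, was called with a change of more than 1.5-fold, where 0.394% of the genes tested were higher by that rule and 3.48% lower. The balance of calls depends on how the libraries are scaled. With median-of-ratios scaling 14 of the 34 genes were higher and none was lower, while calls over all genes went from 32.9% higher to 50.8% higher. With quantile normalization 8 were higher and 1 was lower, at 50.7% higher over all genes. After removal of the trend with GC content and transcript length, 15 were higher and 1 was lower, at 63.0% higher over all genes. The 34 genes had a median transcript GC content of 42.9% against 48.1% for all genes tested and a median level of 278.9 TPM against 17.1 TPM. The part of GC content in their fold changes was not tested beyond that correction. With 1 library left out at a time, between 3 (without vehicle replicate 2) and 10 (without LLY-283 replicate 4) genes were higher, with 4 without vehicle replicate 4 or LLY-283 replicate 3 and 6 or 7 without any of the others. Between 0 and 3 were then lower, with 3 without LLY-283 replicate 4, 1 without vehicle replicate 1 or LLY-283 replicate 3 and 0 without any of the other libraries. The calls over all 14478 genes moved as well. They were 929 higher and 2050 lower without vehicle replicate 2, 888 and 1889 without vehicle replicate 4, and 1508 and 2659 without LLY-283 replicate 4.

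**Figure D2:**
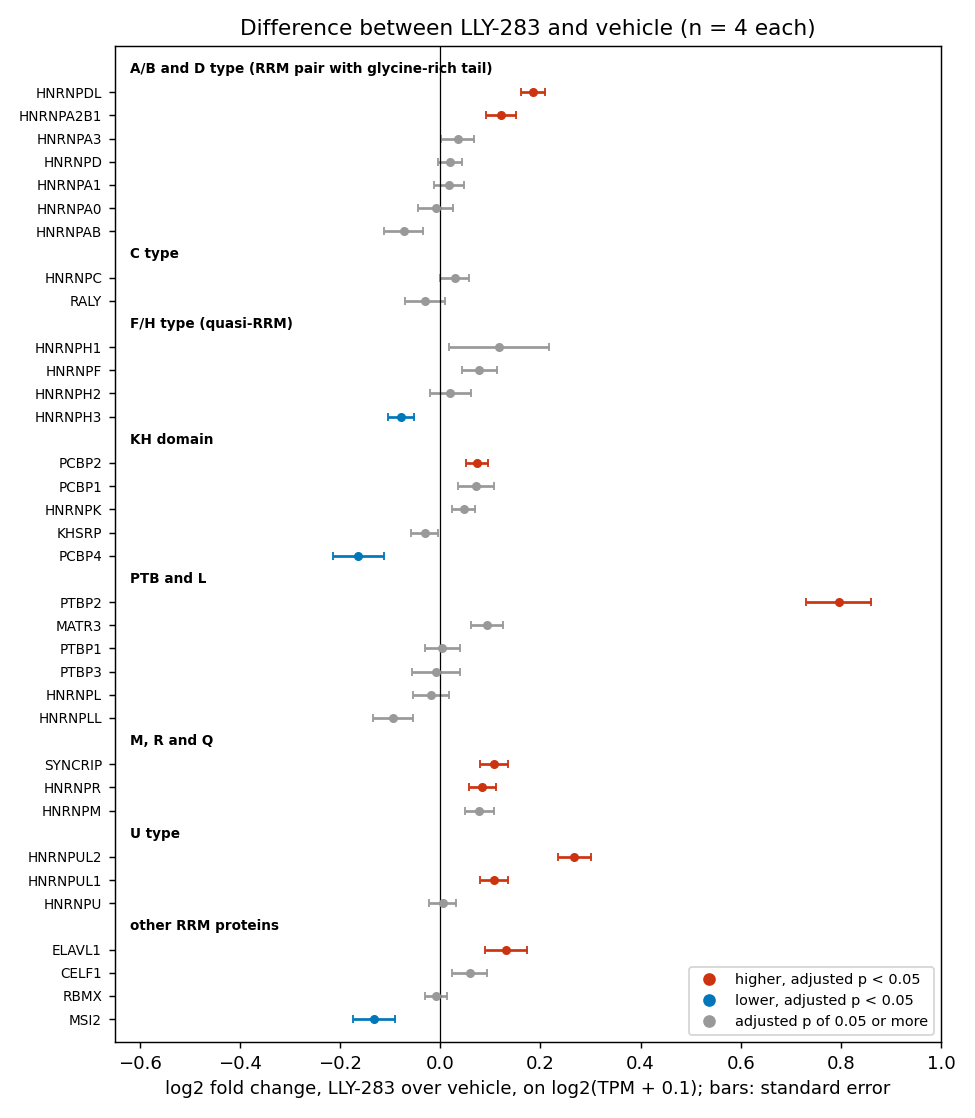
Log2 fold change of LLY-283 over vehicle for the 34 genes by structural group, on the log2(TPM + 0.1) scale, with bars for the standard error and n = 4 per group. Red marks the 9 genes that were higher and blue the 3 that were lower at an adjusted p-value under 0.05. Apart from PTBP2 at 0.80, the fold changes lie between -0.16 and 0.27.

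The largest change of the 34 genes was in the PTB family, where PTBP2 rose and PTBP1 and PTBP3 did not pass the test. PTBP2, the neuronal PTB protein (chromosome 1, 96721665 to 96823738 of GRCh38, plus strand, ENSG00000117569.19), was at 17.4, 15.6, 17.4 and 17.2 TPM with vehicle and at 30.03, 32.2, 29.2 and 26.4 TPM with LLY-283. Each LLY-283 library lay above each vehicle library, and the lowest LLY-283 value, in replicate 4, was still well above the highest vehicle value. The log2 fold change of 0.80 (SE 0.065, adjusted p = 7.51e-05), 1.74-fold, passed the threshold under all 18 alternative settings, with values between 0.75 and 0.86 and adjusted p-values of at most 0.00217. PTBP2 thus went from the lowest level of the 34 genes, under PTBP3 and PCBP4, to 29.4 ± 2.40 TPM (SD, n = 4), above both.

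PTBP1, the general PTB protein (chromosome 19, 797075 to 812327, plus strand), was at 265, 276, 266 and 257 TPM with vehicle and at 258, 259, 273 and 278 TPM with LLY-283. The groups overlapped throughout, with a log2 fold change of 0.00 (SE 0.035, adjusted p = 0.945), and of -0.02 without LLY-283 replicate 4. PTBP3 (chromosome 9, 112217716 to 112333664, minus strand), the other paralog, was at 20.2, 19.2, 22.1 and 20.4 TPM and at 20.6, 20.1, 20.8 and 19.9 TPM, and its log2 fold change was -0.01 (SE 0.048, adjusted p = 0.917), and 0.002 without LLY-283 replicate 4. The PTBP2 level as a percentage of that of PTBP1 was 6.59, 5.64, 6.53 and 6.71 in the vehicle libraries and 11.7, 12.4, 10.7 and 9.50 in the LLY-283 libraries. PTBP1 mRNA was the more abundant in every library. Of the markers of neurons, in which PTBP2 is best known, RBFOX3 was at most 0.09 TPM in any library and SNAP25 lay between 0.34 and 0.80 TPM.

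**Figure D3:**
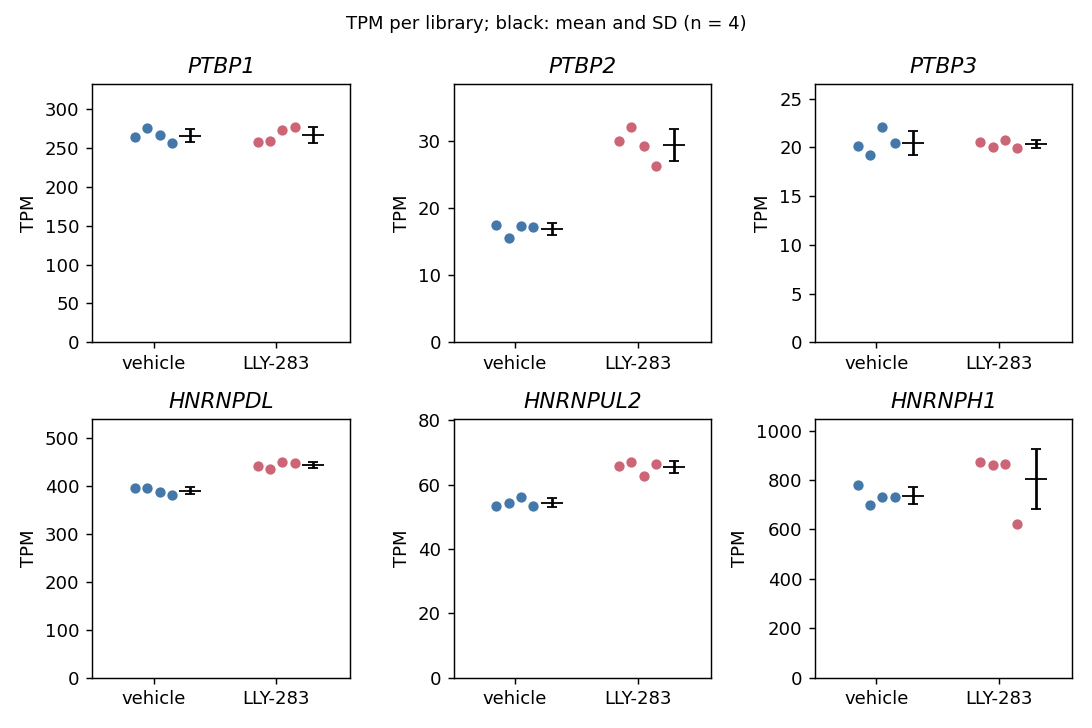
TPM per library of PTBP1, PTBP2, PTBP3, HNRNPDL, HNRNPUL2 and HNRNPH1, with points for the 4 libraries of each group in replicate order and black marks for the mean and SD. PTBP2, HNRNPDL and HNRNPUL2 separate without overlap, PTBP1 and PTBP3 overlap, and in HNRNPH1 the fourth LLY-283 library lies at 623 TPM, below all the others.

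The 3 PTB genes share a small exon, and its sequence is shown because in PTBP1 and PTBP2 it is a known point of control by PTBP1. PTBP1 protein binds pyrimidine-rich RNA ahead of this exon and causes it to be skipped, both in its own transcript and in that of PTBP2, and because the exon's length is not a multiple of a codon the skipped transcript is shifted in frame and degraded. In GENCODE release 44 the exon is 34 bases long in each gene. It is exon 11 of the canonical PTBP1 transcript (chr19:807869-807902, plus strand), exon 10 of that of PTBP2 (chr1:96806419-96806452, plus strand) and exon 10 of that of PTBP3 (chr9:112231380-112231413, minus strand). Below, the 100 intron bases ahead of it are in lower case and the exon is in capitals, 5′ to 3′, read from GRCh38.
PTBP1: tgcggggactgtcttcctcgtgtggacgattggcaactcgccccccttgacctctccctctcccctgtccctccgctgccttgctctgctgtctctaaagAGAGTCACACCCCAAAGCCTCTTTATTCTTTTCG
PTBP2: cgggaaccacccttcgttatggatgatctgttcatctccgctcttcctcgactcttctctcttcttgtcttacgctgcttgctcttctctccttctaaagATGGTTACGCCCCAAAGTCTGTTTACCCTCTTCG
PTBP3: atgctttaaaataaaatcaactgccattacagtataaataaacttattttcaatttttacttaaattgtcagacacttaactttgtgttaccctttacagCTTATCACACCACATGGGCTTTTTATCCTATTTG
The exon of PTBP2 matches that of PTBP1 at 25 of 34 positions and that of PTBP3 at 21 of 34. The introns ahead of it differ more, with 36 of 100 positions matching between PTBP2 and PTBP1. Of the 100 bases, 73 are C or T in PTBP2, 69 in PTBP1 and 56 in PTBP3, where the median of 171248 such windows ahead of internal exons of protein-coding genes is 55.0. The tetramer TCTT, a core motif of PTB binding, was searched for on the strand shown, with overlapping matches counted. It occurs 6 times in the PTBP2 window, once in that of PTBP1 and not in that of PTBP3. In the PTBP2 window it is in capitals here.
PTBP2: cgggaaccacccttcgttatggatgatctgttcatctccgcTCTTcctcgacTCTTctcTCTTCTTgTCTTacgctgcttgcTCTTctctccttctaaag
Among all windows, 61.1% hold at least 1 TCTT and 0.162% hold 6 or more. The hexamer CTCTCT occurs once in the PTBP2 window, not in the others, and in 9.00% of all windows. The tetramer TTCT, which can overlap both, occurs 4 times in the PTBP2 window and not in the others. Of all windows, 65.1% hold at least 1 TTCT and 3.62% hold 4 or more. These matches describe the sequence and are not measured sites. A gene's TPM pools its transcripts, so the data do not separate PTBP2 transcripts with the exon from those without it.

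HNRNPL and HNRNPLL encode PTB-like proteins that bind CA-rich RNA, and the latter is known for switching CD45 exons in T cells. HNRNPL was at 364, 375, 381 and 381 TPM with vehicle and at 356, 362, 368 and 397 TPM with LLY-283, and the groups overlapped (log2 fold change -0.02, SE 0.036, adjusted p = 0.735, and -0.05 without LLY-283 replicate 4). HNRNPLL was at 42.0 ± 1.15 TPM with vehicle and 39.4 ± 1.66 TPM with LLY-283 (SD, n = 4 each) and did not pass (log2 fold change -0.09, adjusted p = 0.111). MATR3, a nuclear matrix protein that works with PTBP1 on many exons, was at 320.3, 298, 327 and 316 TPM and at 335, 330.5, 338 and 342 TPM. Its groups did not overlap, but its log2 fold change of 0.09 (SE 0.032) missed the threshold with an adjusted p of 0.0564, and passed it without vehicle replicate 3 (adjusted p = 0.0434), with median-of-ratios scaling (log2 fold change 0.14, adjusted p = 0.0121) and with the GC and length trend removed (log2 fold change 0.14, adjusted p = 0.0270). A second table row with the symbol MATR3, for a gene that overlaps it on the same strand, had a mean of 8.79 TPM and was not used.

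In the U group, HNRNPUL2 rose, HNRNPUL1 rose by less, and HNRNPU did not pass. HNRNPU encodes scaffold attachment factor A, which ties RNA to chromatin, and the HNRNPUL genes encode its relatives with a part in transcription and in the processing of DNA ends. HNRNPUL2 (chromosome 11, 62712630 to 62727457, minus strand, overlapped on the same strand by the readthrough gene HNRNPUL2-BSCL2) was at 53.5, 54.4, 56.2 and 53.5 TPM with vehicle and at 65.9, 67.0, 62.8 and 66.3 TPM with LLY-283. All LLY-283 values exceeded all vehicle values, and the log2 fold change was 0.27 (SE 0.033, adjusted p = 0.000539), an increase of 20.4%. HNRNPUL1 was at 196, 192, 202 and 193 TPM and at 210.2, 204, 216 and 214 TPM, without overlap, and its log2 fold change was 0.11 (SE 0.028, adjusted p = 0.0212). The call of HNRNPUL1 was lost without vehicle replicate 2 (adjusted p = 0.0560), vehicle replicate 4 (adjusted p = 0.0597) or LLY-283 replicate 3 (adjusted p = 0.0568), and without the eBayes trend (adjusted p = 0.0520). It held at a log2 fold change of 0.17 with the GC and length trend removed. HNRNPU, by far the most abundant of this group, was at 571, 575, 576 and 572 TPM and at 564, 565, 573 and 601 TPM, with LLY-283 replicates 1 and 2 under the vehicle range, replicate 3 within it and replicate 4 above it (log2 fold change 0.00, SE 0.027, adjusted p = 0.919, and -0.02 without LLY-283 replicate 4).

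Among the A/B and D type proteins, which carry a pair of RRMs and a glycine-rich tail, HNRNPDL and HNRNPA2B1 rose and the other 5 did not pass. HNRNPDL, a relative of the AU-rich element binding protein hnRNP D (chromosome 4, 82422565 to 82430462, minus strand), was at 397, 396, 388 and 382 TPM with vehicle and at 442, 436, 450.3 and 448 TPM with LLY-283. The groups were far apart relative to their spread, with a log2 fold change of 0.18 (SE 0.024, adjusted p = 0.00076), an increase of 13.6%. HNRNPA2B1, which encodes a core protein that is also linked to RNA carrying N6-methyladenosine (chromosome 7, 26171151 to 26201529, minus strand), was at 1425, 1317, 1316 and 1337 TPM and at 1466, 1452, 1476 and 1471 TPM. Vehicle replicate 1 came close to the LLY-283 range, yet the groups did not overlap, and the log2 fold change was 0.12 (SE 0.030, adjusted p = 0.0162). It was lost under quantile normalization (log2 fold change 0.07, adjusted p = 0.172), without the filter on low values (adjusted p = 0.0534) and without vehicle replicate 2 (adjusted p = 0.0547), replicate 3 (adjusted p = 0.0522) or replicate 4 (adjusted p = 0.0523).
HNRNPA1, the prototype of the family and the most abundant of the 34, was at 1697, 1598, 1633 and 1642 TPM with vehicle and at 1621, 1662, 1636 and 1731 TPM with LLY-283. The groups overlapped, and the log2 fold change was 0.02 (SE 0.030, adjusted p = 0.705), and -0.002 without LLY-283 replicate 4. Reads of HNRNPA1 can be shared with its many processed copies, so its level is uncertain to that extent. The log2 fold changes of HNRNPA0, HNRNPA3 and HNRNPD lay between -0.01 and 0.03. Without LLY-283 replicate 4, HNRNPA0 was at -0.04 and HNRNPA3 at 0.006. HNRNPAB had a log2 fold change of -0.07 (adjusted p = 0.197). Its values in LLY-283 replicates 1 to 3 (274, 276 and 278 TPM) were under the vehicle range and replicate 4 (308 TPM) was above it, and without replicate 4 the log2 fold change was -0.11 (adjusted p = 0.00532).

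HNRNPC and RALY, the C type, encode related proteins that bind uridine tracts, and hnRNP C forms a tetramer that measures RNA length. HNRNPC was at 1056, 1023, 1023 and 1036 TPM with vehicle and at 1028, 1025, 1078 and 1092 TPM with LLY-283, with overlapping groups and a log2 fold change of 0.03 (SE 0.029, adjusted p = 0.495). RALY had a log2 fold change of -0.03 (SE 0.040, adjusted p = 0.615). With LLY-283 replicate 4 left out, the values were 0.01 for HNRNPC and -0.06 for RALY.

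The F/H proteins bind runs of guanine through quasi-RRMs and promote or repress nearby exons. HNRNPH1 was at 781, 698, 733 and 733 TPM with vehicle and at 872, 859.7, 866 and 623 TPM with LLY-283. The LLY-283 replicates 1 to 3 were above all vehicle libraries and replicate 4 was below them all, so that the log2 fold change of 0.12 had the widest error of the 34 genes (SE 0.10, adjusted p = 0.425). Without LLY-283 replicate 4, the library with the low mitochondrial share, the log2 fold change was 0.24 with an adjusted p of 0.00223. HNRNPH3, a shorter relative, was at 212, 213, 218 and 221 TPM and at 207, 206, 206 and 199.8 TPM, without overlap, and was called lower with a log2 fold change of -0.08 (SE 0.025, adjusted p = 0.0495). That call sat at the threshold. It was lost without any library other than LLY-283 replicate 4, with adjusted p-values between 0.0574 (without vehicle replicate 1) and 0.124 (without vehicle replicate 4), and its log2 fold change was -0.03 with median-of-ratios scaling and -0.005 with the GC and length trend removed (adjusted p = 0.362 and 0.885). Quantile normalization, leaving out mitochondrial genes, no filter on low values, no eBayes trend and a replicate block also ended the HNRNPH3 call, with adjusted p-values between 0.0586 and 0.104. HNRNPF (log2 fold change 0.08, adjusted p = 0.121) and HNRNPH2 (log2 fold change 0.02, adjusted p = 0.749) did not pass, and were at 0.05 and -0.008 without LLY-283 replicate 4.

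The KH proteins bind cytosine-rich or AU-rich RNA. HNRNPK was at 817, 807, 823 and 799 TPM with vehicle and at 838, 820.0, 847 and 848 TPM with LLY-283, overlapping in 1 library, with a log2 fold change of 0.05 (SE 0.023, adjusted p = 0.171). PCBP2, which stabilizes transcripts such as alpha-globin mRNA, was at 609.5, 603, 600.0 and 614 TPM and at 652, 635, 632 and 635 TPM, without overlap, and was called higher (log2 fold change 0.07, SE 0.023, adjusted p = 0.0385). PCBP1, an intronless gene that arose from a PCBP2 transcript, had a log2 fold change of 0.07 with a wider error (SE 0.036, adjusted p = 0.176), and of 0.04 without LLY-283 replicate 4 (adjusted p = 0.197). PCBP4, a p53-linked member expressed at a low level, was at 18.6, 19.9, 20.9 and 20.8 TPM and at 18.1, 17.1, 17.6 and 18.6 TPM. Its groups overlapped, since LLY-283 replicate 4 lay just above vehicle replicate 1, and its log2 fold change of -0.16 (SE 0.050, adjusted p = 0.0396), was the largest decrease of the 34 genes in this fit. With the GC and length trend removed it was -0.08 (adjusted p = 0.249) and with quantile normalization -0.11 (adjusted p = 0.167), and under both MSI2 fell further. PCBP4 was also lost without the filter on low values (adjusted p = 0.0731) and with a replicate block (adjusted p = 0.0622). The call of PCBP4 was also lost without vehicle replicate 2, 3 or 4 or LLY-283 replicate 1, 2 or 3, with adjusted p-values between 0.0684 (without LLY-283 replicate 1) and 0.106 (without vehicle replicate 4). The PCBP2 call was lost without any library other than LLY-283 replicate 4, with adjusted p-values between 0.0617 (without LLY-283 replicate 3) and 0.0945 (without LLY-283 replicate 1). It was also lost with quantile normalization (adjusted p = 0.0567), with mitochondrial genes left out (adjusted p = 0.0639), without the filter on low values (adjusted p = 0.0868), without the eBayes trend (adjusted p = 0.0955) and with a replicate block (adjusted p = 0.0692), while it held at a log2 fold change of 0.15 with the GC and length trend removed and of 0.12 with median-of-ratios scaling. KHSRP, which promotes the decay of AU-rich transcripts, had a log2 fold change of -0.03 (adjusted p = 0.441).

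All 3 genes of the M, R and Q group had LLY-283 values above the vehicle values in every library. SYNCRIP, which encodes hnRNP Q, a partner of translated and transported mRNA, was at 214, 204, 216 and 207 TPM with vehicle and at 223, 224, 232 and 227 TPM with LLY-283 (log2 fold change 0.11, SE 0.028, adjusted p = 0.0196). HNRNPR, its close paralog, was at 319, 305, 309.5 and 314 TPM and at 324, 330.4, 329 and 339.6 TPM (log2 fold change 0.08, SE 0.026, adjusted p = 0.0401). HNRNPM, a splicing regulator with GU-rich targets, was at 414, 406, 404 and 412 TPM and at 421, 425, 427 and 454 TPM, and its log2 fold change of 0.08 (SE 0.029) did not pass (adjusted p = 0.0775). The call of SYNCRIP was lost without vehicle replicate 2 (adjusted p = 0.0514), vehicle replicate 4 (adjusted p = 0.0568) or LLY-283 replicate 3 (adjusted p = 0.0532), and it held at a log2 fold change of 0.17 with the GC and length trend removed. That of HNRNPR was lost without vehicle replicate 2, 3 or 4 or LLY-283 replicate 2 or 3, with adjusted p-values between 0.0710 (without LLY-283 replicate 3) and 0.0979 (without vehicle replicate 2). It was also lost with the GC and length trend removed (log2 fold change 0.14, adjusted p = 0.0943), without the filter on low values (adjusted p = 0.0781), without the eBayes trend (adjusted p = 0.0902) and with a replicate block (adjusted p = 0.0743). HNRNPM passed without LLY-283 replicate 4 (log2 fold change 0.05, adjusted p = 0.0430), with mitochondrial genes left out (log2 fold change 0.07, adjusted p = 0.0291), with median-of-ratios scaling (log2 fold change 0.12, adjusted p = 0.0318) and with the GC and length trend removed (log2 fold change 0.17, adjusted p = 0.00493).

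The remaining 4 genes encode other RRM proteins. ELAVL1 (HuR), which stabilizes AU-rich transcripts, was at 106, 105, 107 and 115 TPM with vehicle and at 116, 115, 116 and 127 TPM with LLY-283, separated by a narrow margin (log2 fold change 0.13, SE 0.042, adjusted p = 0.0447). MSI2, a Musashi protein of stem and glioma cells that represses translation, was at 129, 129, 139.6 and 129 TPM and at 122, 121, 126 and 112 TPM, without overlap and lower with LLY-283 (log2 fold change -0.13, SE 0.042, adjusted p = 0.0450). Both calls were weak. ELAVL1 passed without vehicle replicate 4 and was lost without any of the other 7 libraries, with adjusted p-values between 0.0569 (without LLY-283 replicate 4) and 0.109 (without vehicle replicate 2). MSI2 passed without LLY-283 replicate 3 and was lost without any of the other 7, with adjusted p-values between 0.0608 (without LLY-283 replicate 4) and 0.107 (without vehicle replicate 3). Without the filter on low values or without the eBayes trend, ELAVL1 (adjusted p = 0.0912 and 0.0825) and MSI2 (adjusted p = 0.0928 and 0.0841) also lost their calls, as did MSI2 with mitochondrial genes left out (adjusted p = 0.0673). RBMX (hnRNP G) was at 332, 328, 331 and 325 TPM and at 327, 325, 332 and 325 TPM, the tightest error of the set (log2 fold change -0.01, SE 0.022, adjusted p = 0.813, and -0.004 without LLY-283 replicate 4). With the GC and length trend removed, the value for RBMX turned to 0.08 and passed as higher (adjusted p = 0.0266). CELF1, a regulator of splicing and decay through GU-rich elements, had a log2 fold change of 0.06 (SE 0.035, adjusted p = 0.241).

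**Figure D4:**
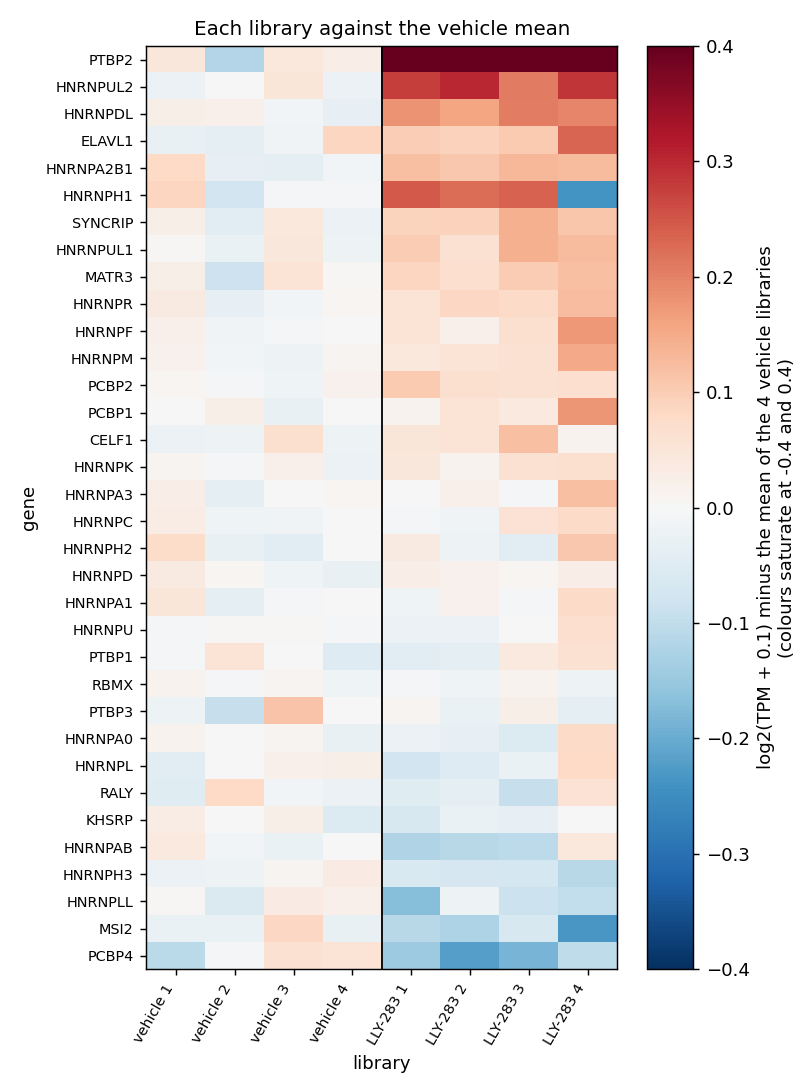
Log2(TPM + 0.1) of each gene in each library minus the mean of the 4 vehicle libraries, with genes ordered by fold change and colours that saturate at -0.4 and 0.4. PTBP2, HNRNPUL2 and HNRNPDL are red in all 4 LLY-283 libraries, while HNRNPH1 is red in 3 of them and blue in replicate 4.

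The genes PTBP2, HNRNPUL2 and HNRNPDL, were called higher under each of the 18 alternatives, with adjusted p-values of at most 0.00217, 0.00632 and 0.00712. The other 9 called genes lost the call under at least 1 alternative, and none of the 12 changed direction. The 3 genes called lower, PCBP4, MSI2 and HNRNPH3, all lost the call under median-of-ratios scaling (adjusted p = 0.105, 0.108 and 0.362). Of the other genes without a call, HNRNPF, HNRNPK, PCBP1 and CELF1 passed as higher with the GC and length trend removed (log2 fold changes of 0.16, 0.11, 0.18 and 0.12). All of these but PCBP1 also passed with median-of-ratios scaling. HNRNPF passed with quantile normalization as well (log2 fold change 0.07, adjusted p = 0.0422). The upstream sequences of HNRNPDL and HNRNPUL2 are shown because both genes kept a higher call under every alternative, from RefSeq on GRCh38.p14, with the 200 bases before the transcription start. For PTBP2 the RefSeq start lies inside the GENCODE gene and its sequence is not shown. Capitals mark the motifs CCAAT (searched on both strands, so also as ATTGG) and CGGAAG (also as CTTCCG), none of which overlap here.
HNRNPDL, chr4:82430463-82430662, minus strand: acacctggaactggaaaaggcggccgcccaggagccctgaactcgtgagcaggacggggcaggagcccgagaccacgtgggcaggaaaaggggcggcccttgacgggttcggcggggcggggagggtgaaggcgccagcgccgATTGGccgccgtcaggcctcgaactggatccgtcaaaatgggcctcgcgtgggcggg
HNRNPUL2, chr11:62727458-62727657, minus strand: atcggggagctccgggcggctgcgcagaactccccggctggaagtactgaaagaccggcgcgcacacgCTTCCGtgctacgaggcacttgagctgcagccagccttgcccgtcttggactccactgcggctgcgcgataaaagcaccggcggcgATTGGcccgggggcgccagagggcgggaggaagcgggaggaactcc
Of the 34 genes, 32 had an entry among these promoter sequences (all except HNRNPA1 and ELAVL1). CCAAT was found within the 200 bases in 17 of them (53.1%), against 29.9% of the promoters of the genes tested and 28.0% of all 35116 promoters. CGGAAG was found in 28.1%, against 22.8% and 14.6%, and TATAAA, on both strands, in 12.5%, against 4.60% and 8.59%. The median GC content of the 200 bases was 67.5%, against 65.5% for the genes tested. Both promoters shown hold a CCAAT match. The PTBP2 and PTBP3 sequences hold none of the 3 motifs, but both lie inside the GENCODE gene and so are no contrast to the promoters shown. Other sequences among the 32, such as those of HNRNPD, HNRNPLL and HNRNPA2B1, also lie inside the GENCODE gene. For the 34 genes only the entry nearest the GENCODE gene start was counted. The comparison sets hold every entry (15174 for the genes tested), so the shares come from unlike selections. These counts are a description of letters and were not tested.

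A pair of further lists shows how RNA-binding proteins outside the 34 behaved. Of 20 paralogs outside the set, 11 reached a mean of 1 TPM and were tested. SAFB2 (62.9 ± 0.537 to 77.2 ± 3.08 TPM, log2 fold change 0.29, adjusted p = 0.000412) and SAFB (99.9 ± 1.34 to 117 ± 2.60 TPM, log2 fold change 0.23, adjusted p = 0.000449) were higher (SD, n = 4 each). They encode scaffold attachment factors, and their genes lie head to head and overlap on opposite strands. RBMXL1, a retrocopy of RBMX between which and RBMX reads may be divided, was lower (log2 fold change -0.22, adjusted p = 0.0121), as was FUBP1, a relative of KHSRP (log2 fold change -0.10, adjusted p = 0.0414). The median log2 fold change of the 11 was -0.06.
Of 40 other regulators of alternative splicing, 31 were tested, and 6 were higher and 6 lower, with a median log2 fold change of -0.02. For both lists the background is that of all genes tested, 8.61% higher and 17.6% lower with a median of -0.05. The differences from that background were not tested. TAF15, an RNA-binding protein that associates with the transcription machinery, had the smallest p-value of the genes called lower. It was at 336, 322, 316 and 327 TPM with vehicle and at 199.7, 199, 192 and 195 TPM with LLY-283, without overlap (log2 fold change -0.73, SE 0.027, adjusted p = 2.58e-06).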

How the data were processed

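RNAseq of 8 U251 libraries was analysed from 1 table. Reads were trimmed by the authors (Cutadapt 1.18), aligned by STAR against GRCh38 and summarised over the genes of GENCODE release 41 by RSEM 1.3.3 (1.3.1 in the submitters' processing notes), and the deposited unit is TPM. TPM keeps no depth, and composition differences between libraries remain. From these, log2(TPM + 0.1) of genes reaching a mean of 1 TPM was compared with limma 3.58.1 (lmFit, eBayes with trend, R 4.3.3), without a replicate block, with Benjamini-Hochberg adjustment. The fit was tested on simulated data. The members and lists were chosen with earlier results of these data known. Values per library are given for the 10 called genes of largest change, the PTB genes and the most abundant gene of each structural group, and for others after their values were seen. In each wider list, the called gene of smallest p in each direction is named, except 1 that is not reported here. Positions, exons and GC content came from GENCODE release 44 on GRCh38, and promoters from RefSeq (GRCh38.p14). The strandedness of the counting is not given in the sources used here. The alternatives were another pseudocount, other filters, 3 scalings, other eBayes forms, a replicate block, a GC and length correction (natural splines with 4 degrees of freedom) and each library left out. The rMATS splicing analysis of the study was not analysed here.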

Additional observations from a re-analysis of the deposited data

Results flagged for a closer look

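In groups of 4, a sample was singled out when its gap to the nearest other sample was, as a share of the group's range, above Dixon's critical value. Of the 68 groups of 4 values examined for the 34 genes, 9 had such a sample, where chance gives about 1 in 20, and 5 of the 9 were in LLY-283 replicate 4. These were HNRNPH1 (low, at 623 TPM), HNRNPH3 (low, at 199.8 TPM), HNRNPAB (high, at 308 TPM), HNRNPM (high, at 454 TPM) and ELAVL1 (high, at 127 TPM). The same library had the lowest share of TPM in mitochondrially encoded genes, 7.19%, which was also far from the other 3 LLY-283 libraries. The part of this in the 5 values was not tested.
The other 4 were PCBP2 in LLY-283 replicate 1 (652 TPM, high), PTBP2 in vehicle replicate 2 (15.6 TPM, low), and MSI2 (139.6 TPM) and CELF1 (66.0 TPM) in vehicle replicate 3, both high.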

How the results depend on the processing

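PTBP2, HNRNPUL2 and HNRNPDL kept their calls under all 18 alternatives, and none of the 12 called genes changed direction. Of the 34 genes, 9 were higher and 3 lower in the reported fit. The number higher was 5 without the filter on low values, 5 without the eBayes trend, 14 with median-of-ratios scaling, 15 with the GC and length trend removed, 1 with the 1.5-fold limit and 3 to 10 with 1 library left out. The number lower was 0 without the filter, with median-of-ratios scaling or with the 1.5-fold limit, 1 with quantile normalization, with mitochondrial genes left out, without the trend, with the replicate block or with GC and length removed, and 0 to 3 with 1 library left out. Over all genes, 1247 higher and 2541 lower became 1871 higher and 1820 lower with quantile normalization, 1927 higher and 1866 lower with median-of-ratios scaling, 2801 higher and 1644 lower with GC and length removed, and 57 and 504 with the 1.5-fold limit. They became 930 higher and 2041 lower without the filter (of 31471 genes) and 1037 and 2391 without the eBayes trend. With 1 library left out, 888 to 1508 of all genes were higher and 1889 to 2659 lower. Over all genes the median log2 change, -0.05, became -0.002, 0.014 and 0.032 under median-of-ratios scaling, quantile normalization and the GC and length correction.

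Signs turned only in genes without a call. With median-of-ratios scaling the log2 fold changes were 0.036 for HNRNPA0, 0.015 for RALY, 0.013 for KHSRP, 0.036 for PTBP3, 0.026 for HNRNPL and 0.037 for RBMX. With GC and length removed they were 0.035 for HNRNPA0, 0.032 for HNRNPAB, 0.031 for RALY, 0.026 for KHSRP, 0.042 for PTBP3, 0.076 for HNRNPL and 0.084 for RBMX (adjusted p = 0.0266). With quantile normalization they were -0.017 for HNRNPA1, -0.022 for HNRNPA3, -0.00072 for HNRNPC, -0.0072 for HNRNPK and 0.039 for PTBP3. With mitochondrial genes left out they were -0.0049 for PTBP1 and -0.0045 for HNRNPU. With 1 library left out they ranged from -0.037 to 0.0061 for HNRNPA0, from -0.0021 to 0.033 for HNRNPA1, from -0.0083 to 0.045 for HNRNPH2, from -0.015 to 0.023 for PTBP1, from -0.039 to 0.029 for PTBP3, from -0.052 to 9.0e-05 for HNRNPL and from -0.017 to 0.014 for HNRNPU. The cause was not tested.

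Same-numbered libraries did not deviate together (correlations of -0.041, 0.032, -0.002 and -0.085). The highest correlation of each vehicle library with an LLY-283 library of another number was 0.098, 0.201, 0.058 and 0.123. No pairing by number is seen in these values, but they do not settle whether samples were handled in pairs. With the replicate block 7 of the 34 genes were higher and 1 lower, and 1095 and 2201 of all genes. No depth is known, so counting error cannot be set apart from the spread between libraries.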
